A study of Mus musculus with 6 samples.

Results

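Mural cells are the pericytes and smooth muscle cells that wrap blood vessels, and 10 of their marker genes were followed here in RNA of mouse pancreatic islets. The genes were Acta2, Tagln, Myh11, Cnn1, Rgs5, Cspg4, Des, Mcam, Notch3 and Kcnj8, found by symbol among the 55401 gene identifiers of the count table. They were chosen as known markers of these cells, with earlier results of these data known. The KO group was 3 libraries from male C57BL/6 mice of about 20 weeks with genotype Pdgfra fl/fl Pdx1-Cre+. The control group was 3 libraries from Pdgfra fl/fl Pdx1-Cre- males of the same strain and age. All animals thus carried the floxed allele of the gene of platelet-derived growth factor receptor alpha, and Cre was the difference between the groups. No animals with Cre and an unfloxed Pdgfra are among the samples, so effects of Cre and of the deletion cannot be told apart. Mice are numbered within a group in the titles, but whether 1 library means 1 animal is not said, and the tests therefore speak of the spread among libraries.

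Pericytes share a basement membrane with the endothelium of capillaries, and smooth muscle cells form rings around arterioles. Both constrict or relax vessels, and in islets pericytes line a dense capillary network that supplies the endocrine cells. They depend on platelet-derived growth factor B from endothelial cells, which acts on the receptor Pdgfrb, and on Notch3. Mural cells of the pancreas come from mesenchyme, whereas Pdx1, whose promoter drives Cre here, marks the epithelial lineage that gives endocrine, acinar and duct cells.

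The libraries held 18247741 to 25039394 counts in KO and 15026094 to 25299689 in controls. Pdgfra itself had 3.73, 1.56 and 4.76 CPM (CPM are counts relative to library size, scaled by normalization factors) in KO 1, 2 and 3, against 3.37, 5.13 and 3.82 CPM in controls 1, 2 and 3. Counts sum all exons of a gene, so Pdgfra gave no check of the deletion. Beta cell is the labelled cell type, and Ins1 and Ins2 took 9.48 to 11.7% of counts in KO and 7.04 to 13.3% in controls, but the 23 genes of an acinar list took 17.97 to 32.7% in KO and 23.6 to 42.3% in controls. A ribosomal RNA locus took 5.36, 12.6 and 18.5% of counts in KO 1, 2 and 3, against 3.32 to 4.51% in controls. The 10 mural genes were a trace of the RNA, at 0.0108 to 0.0274% of counts in KO and 0.0143 to 0.0245% in controls.

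Transcripts of every mural gene were detected in all 6 libraries, and no mural gene passed the test of a difference between the genotypes. Summed over the 10 genes, the level was 177, 123 and 261 CPM in KO 1, 2 and 3, against 172, 227 and 204 CPM in controls 1, 2 and 3. The groups overlapped for each of the 10 genes. Of the 9 that passed the filter on low counts, 0 passed the threshold of 0.05 (quasi-likelihood test of edgeR, adjusted by Benjamini-Hochberg over all 14212 tested genes), where 0.0704% of all tested genes did. None had an unadjusted p under 0.05 either, against 7.37% of all tested genes, and DESeq2 and limma-voom also called 0. Log2 fold changes, KO over control, were positive for 4 and negative for 5, with a median of -0.024. Over all tested genes the median was -0.010, and 52.2% were negative. In bulk RNA, fewer mural cells and less RNA per mural cell cannot be told apart.

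**Figure D1:**
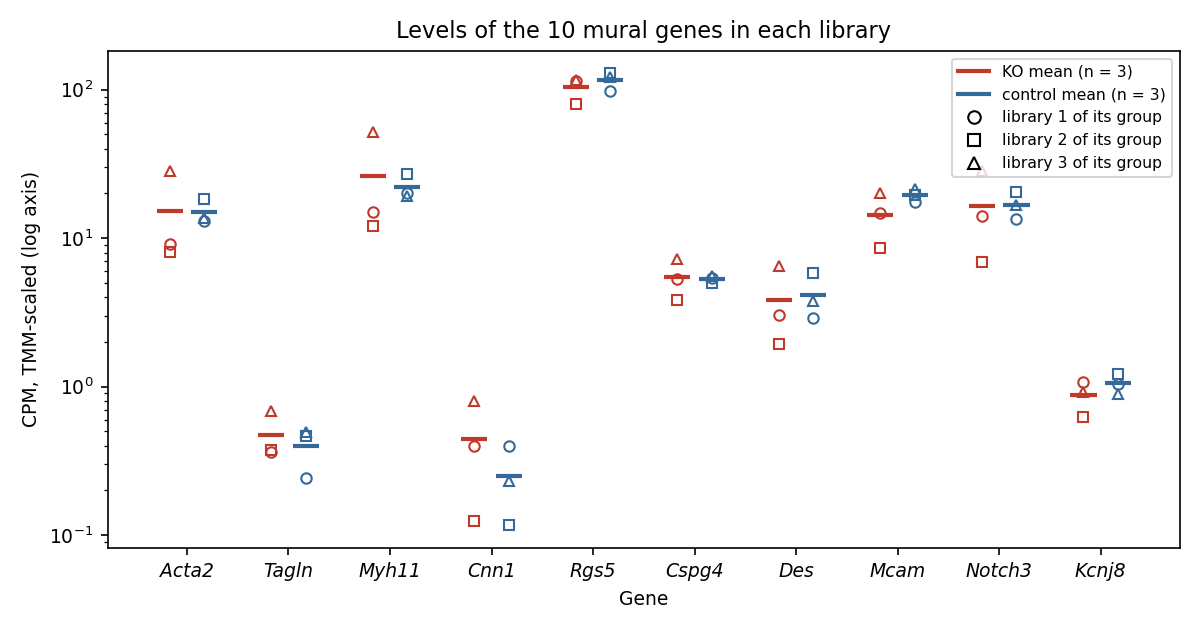
CPM of each mural gene in each library on a log axis, KO in red to the left of control in blue, with circles, squares and triangles for libraries 1, 2 and 3 of a group and bars for the means of 3. KO 3 lies above the controls for Acta2, Myh11 and Notch3 and KO 2 lies below them, and Rgs5 is the most abundant gene at 80.5 to 129 CPM.

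Per length of exon, Rgs5 was far the most abundant and the contractile genes spanned the scale. In RPKM (CPM per kilobase of exon), Rgs5 stood at 22.8 ± 4.42 in KO and 25.6 ± 3.58 in controls (SD, n = 3 each), followed by Acta2 at 6.90 ± 5.16 in KO and 6.84 ± 1.28 in controls. Next came Mcam, Myh11, Notch3 and Des, with means of 4.30, 3.46, 2.02 and 1.02 RPKM in KO and 5.85, 2.93, 2.08 and 1.11 RPKM in controls. Cspg4, Kcnj8, Tagln and Cnn1 were lowest, with means of 0.456, 0.343, 0.238 and 0.161 RPKM in KO and 0.445, 0.413, 0.201 and 0.0912 RPKM in controls. The order of the means was the same in both groups. In the KO libraries Rgs5 alone stood clear of its neighbour in this order. In controls the ranges of Acta2 and Mcam, of Cspg4 and Kcnj8, and of Tagln and Cnn1 overlapped, and the other neighbours did not.

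Among the genes of the contractile apparatus, Acta2 and Myh11 were high in KO 3 and low in KO 1 and KO 2, with the controls between. Acta2 encodes smooth muscle alpha-actin, the thin-filament actin of vascular smooth muscle (ENSMUSG00000035783.9, chromosome 19, 34241090 to 34255590, GRCm38). It had 9.13, 8.11 and 28.2 CPM in KO 1, 2 and 3, from 228, 130 and 742 counts. In controls 1, 2 and 3 it had 13.1, 18.2 and 13.7 CPM, from 163, 313 and 417 counts. All 3 controls thus fell inside the KO range, and the log2 fold change was 0.034 (standard error 0.41, 95% interval -0.89 to 0.96, adjusted p = 0.989 in edgeR). Its coding sequence is close to those of other actin genes, and how reads that map to several places were treated is not given, so its counts are uncertain to that extent.

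Smooth muscle myosin heavy chain, the motor that pulls on these filaments, is encoded by Myh11 (ENSMUSG00000018830.10, chromosome 16, 14194535 to 14291372). Myh11 had 15.1, 12.1 and 51.6 CPM in KO 1, 2 and 3, against 20.3, 27.2 and 19.3 CPM in controls 1, 2 and 3. KO 3 was above every other library, and the other KO libraries were below every control. The log2 fold change was 0.26 (standard error 0.46, 95% interval -0.78 to 1.29, adjusted p = 0.911 in edgeR). The sign of both genes turned on KO 3. Without that library Acta2 stood at -0.79 (standard error 0.17, unadjusted p = 0.00122, adjusted p = 0.375 in edgeR) and Myh11 at -0.70 (standard error 0.17, unadjusted p = 0.0030, adjusted p = 0.565).

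Tagln and Cnn1, the calponin-related actin-binding proteins transgelin and calponin 1, were near the limit of detection. Tagln (ENSMUSG00000032085.5, chromosome 9, 45929619 to 45936058) was counted 9, 6 and 18 times in KO 1, 2 and 3, against 3, 8 and 15 times in controls 1, 2 and 3. That is 0.361, 0.374 and 0.685 CPM in KO against 0.241, 0.466 and 0.494 CPM in controls, a log2 fold change of 0.19 (standard error 0.44, 95% interval -0.80 to 1.18, adjusted p = 0.933 in edgeR). An antisense gene, Gm48529, lies on the opposite strand over 1241 of the 1988 exon bases of Tagln, or 62.4%. The strand setting of the counting is not given, and without strand such reads cannot be assigned to either gene, so the low level of Tagln is uncertain. Gm48529 itself had 21 counts over the 6 libraries.

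Cnn1 (ENSMUSG00000001349.5, chromosome 9, 22099216 to 22109630) was counted 10, 2 and 21 times in KO 1, 2 and 3, against 5, 2 and 7 times in controls 1, 2 and 3. It did not pass the filter on low counts and had no test. Without the filter its log2 fold change was 0.95 (standard error 0.62, adjusted p = 0.784 in edgeR). Cnn1 passed the filter when certain libraries were left out, with log2 fold changes of 1.33 (standard error 0.56, unadjusted p = 0.0430, adjusted p = 0.522 in edgeR) without KO 2, 1.32 (standard error 0.77, adjusted p = 0.955) without control 1 and 0.68 (standard error 0.74, adjusted p = 0.984) without control 2. The lowest library of each group had 2 counts, and no difference passed the threshold at this depth.

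Smooth muscle genes such as Acta2 are known targets of serum response factor, which binds the CArG box, and Notch receptors act through the factor RBPJ, whose core motif is TGGGAA. The promoter windows, from 250 bases before to 50 bases after the RefSeq start site (GRCm38.p6), were searched for both motifs on both strands, and windows were found for 8 of the 10 genes. Tagln and Myh11 were not among them. The window of Acta2, which with Myh11 and Notch3 was among the most variable of the tested genes, is shown with those of Notch3, which moved with it across libraries, and Rgs5, the most abundant and steadiest gene. Capitals mark matches to TGGGAA and to the CArG box with at most 1 G or C in its core.
Acta2, minus strand, chr19:34255324-34255623: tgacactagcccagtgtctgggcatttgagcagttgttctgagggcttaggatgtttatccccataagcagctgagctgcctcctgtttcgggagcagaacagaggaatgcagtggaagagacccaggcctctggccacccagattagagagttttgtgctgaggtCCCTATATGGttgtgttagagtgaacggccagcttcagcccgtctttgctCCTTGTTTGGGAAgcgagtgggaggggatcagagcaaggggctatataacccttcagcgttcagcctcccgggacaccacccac
Notch3, minus strand, chr17:32166841-32167140: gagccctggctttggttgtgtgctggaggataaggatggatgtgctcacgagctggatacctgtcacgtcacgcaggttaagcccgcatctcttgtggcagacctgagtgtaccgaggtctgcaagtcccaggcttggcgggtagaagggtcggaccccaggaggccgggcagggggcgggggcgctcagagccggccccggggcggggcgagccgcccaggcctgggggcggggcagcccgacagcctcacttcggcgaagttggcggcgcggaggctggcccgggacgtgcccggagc
Rgs5, plus strand, chr1:169655251-169655550: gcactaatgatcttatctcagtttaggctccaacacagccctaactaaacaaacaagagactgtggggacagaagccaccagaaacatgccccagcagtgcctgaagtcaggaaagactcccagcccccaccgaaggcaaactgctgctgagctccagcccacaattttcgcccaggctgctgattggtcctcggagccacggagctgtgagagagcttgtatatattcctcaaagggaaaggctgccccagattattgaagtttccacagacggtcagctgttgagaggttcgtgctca
Acta2 held 2 such CArG matches, CCCTATATGG at -84 to -75 and CCTTGTTTGG at -34 to -25 from the start site, and TGGGAA at -27 to -22 overlaps the second of them. The start site used lies inside the Acta2 span of the count table, which begins at 34255590 on the minus strand. Counted from another start, these positions would differ. Of the 8 windows, 0 held a perfect CArG box, and Acta2 was the 1 that held the looser form. Of all 32851 windows of this length, 1.63% held the perfect form and 9.98% the looser one. TGGGAA was found in Acta2 and in Kcnj8, and in 25.6% of all windows. A match is a run of letters and no measure of binding, and its absence concerns only this window.

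Desmin, the intermediate filament that links contractile units, is encoded by Des (ENSMUSG00000026208.9, chromosome 1, 75360329 to 75368579) and marks both smooth muscle and pericytes. Des had 3.04, 1.93 and 6.51 CPM in KO 1, 2 and 3, against 2.89, 5.83 and 3.76 CPM in controls 1, 2 and 3. The highest and the lowest library were both KO, and the log2 fold change was -0.093 (standard error 0.41, 95% interval -1.01 to 0.82, adjusted p = 0.961 in edgeR). Desmin is also a protein of striated muscle. A list of 17 skeletal and cardiac muscle genes summed to 1.56 to 2.31 CPM in KO and 1.44 to 2.10 CPM in controls, and 5 of the 17, the sarcomere genes Tnnt3, Tnnc2, Myh4, Tnni3 and Myl2, had no count in any library.

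Of the genes of pericytes, Rgs5 was the steadiest. It encodes a regulator of G-protein signalling and is a common pericyte marker (ENSMUSG00000026678.10, chromosome 1, 169655501 to 169695813). Rgs5 had 114, 80.5 and 117 CPM in KO 1, 2 and 3, against 97.9, 129 and 122 CPM in controls 1, 2 and 3. KO 2 was the lowest, and the rest of the KO libraries lay within the control range. The log2 fold change was -0.17 (standard error 0.16, 95% interval -0.52 to 0.19, adjusted p = 0.830 in edgeR), the narrowest interval of the mural genes, from 1220 to 3696 counts per library. At its lower bound Rgs5 would be 30.3% lower in KO, and at its upper bound 14.2% higher.

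Mcam, a cell adhesion molecule of pericytes that endothelial cells can also carry, had the smallest p among the mural genes (ENSMUSG00000032135.15, chromosome 9, 44134469 to 44142727). Mcam had 14.7, 8.55 and 20.0 CPM in KO 1, 2 and 3, against 17.6, 19.6 and 21.5 CPM in controls 1, 2 and 3. KO 1 and KO 2 were below every control and KO 3 was within the control range. The log2 fold change was -0.43 (standard error 0.24, 95% interval -0.98 to 0.12, unadjusted p = 0.109, adjusted p = 0.744 in edgeR). Without KO 2 it was -0.18 (standard error 0.15, adjusted p = 0.691).

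Notch3 is the Notch receptor of mural cells and keeps vascular smooth muscle mature (ENSMUSG00000038146.8, chromosome 17, 32120820 to 32166852). Notch3 had 14.1, 6.86 and 28.2 CPM in KO 1, 2 and 3, against 13.4, 20.3 and 16.8 CPM in controls 1, 2 and 3. The KO libraries spanned a 4.10-fold range and the controls a 1.52-fold range inside it, and the log2 fold change was -0.024 (standard error 0.39, 95% interval -0.90 to 0.86, adjusted p = 0.991 in edgeR). Notch3 moved to 0.32 (standard error 0.27, adjusted p = 0.690 in edgeR) without KO 2 and to -0.66 (standard error 0.28, adjusted p = 0.949) without KO 3.

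Cspg4 encodes the proteoglycan NG2 on the pericyte surface (ENSMUSG00000032911.6, chromosome 9, 56865033 to 56899870). Cspg4 had 5.29, 3.81 and 7.23 CPM in KO 1, 2 and 3, against 5.37, 5.01 and 5.53 CPM in controls 1, 2 and 3. The controls lay close together inside the KO range, and the log2 fold change was 0.051 (standard error 0.22, 95% interval -0.44 to 0.55, adjusted p = 0.961 in edgeR). Kcnj8 encodes Kir6.1, the pore of the vascular ATP-sensitive potassium channel (ENSMUSG00000030247.9, chromosome 6, 142564837 to 142571614). Kcnj8 had 27, 10 and 24 counts in KO 1, 2 and 3, against 13, 21 and 27 counts in controls 1, 2 and 3. At 1.08, 0.624 and 0.913 CPM in KO against 1.04, 1.22 and 0.889 CPM in controls, its log2 fold change was -0.22 (standard error 0.31, 95% interval -0.92 to 0.48, adjusted p = 0.885 in edgeR).

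**Figure D2:**
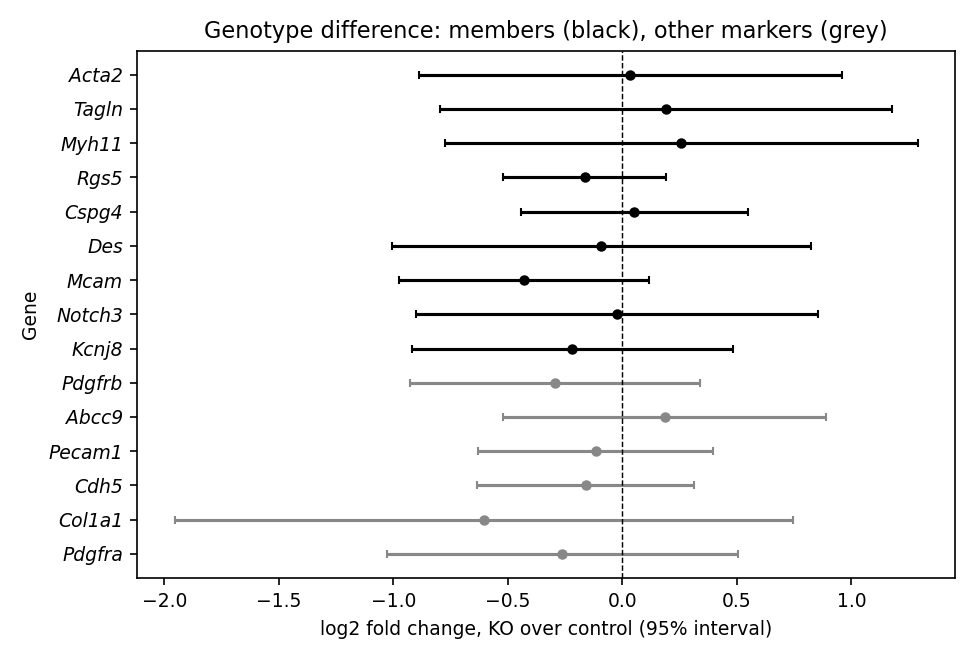
Log2 fold change, KO over control, with its 95% interval from the edgeR fit for the 9 tested mural genes in black and for 6 other vessel and stromal markers in grey. Every interval crosses 0, and those of Acta2, Myh11, Des and Notch3 are wider than that of Rgs5.

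The KO libraries were farther apart in these genes than the controls were, a spread for which no test was run. In 8 of the 9 tested genes the range of log2 CPM was wider over the KO libraries, against 56.2% of all tested genes, and the exception was Tagln. The median range of the tested mural genes was 1.22 on the log2 scale in KO and 0.48 in controls, against medians of 0.34 in KO and 0.29 in controls over all tested genes. KO 3 was the highest of the 6 libraries in 6 of the 9 genes, against 25.8% of all tested genes. KO 2 was the lowest in 8 of the 9, against 19.3% of all tested genes, and 5 of the 9 met both, against 6.6% of all tested genes. These genes are known markers of pericytes and smooth muscle cells, and they cannot be taken as independent of each other.

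**Figure D3:**
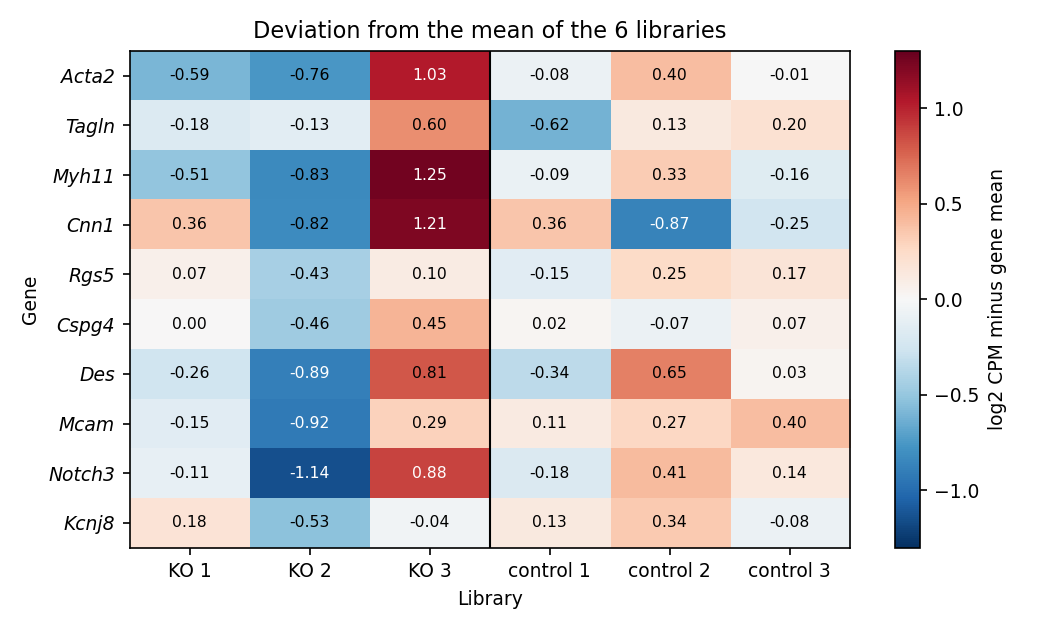
Deviation of log2 CPM from the mean of the 6 libraries for each mural gene, with KO libraries left of the line and controls right of it. KO 2 is negative for all 10 genes, from -0.13 to -1.14, and KO 3 is above 1 for Acta2, Myh11 and Cnn1 but at 0.10 for Rgs5 and -0.044 for Kcnj8.

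The 2 extreme KO libraries were unlike each other in the ratio of summed contractile to summed pericyte genes, which rests largely on Rgs5. The summed CPM of the 4 contractile genes (Acta2, Tagln, Myh11 and Cnn1) was 25.0, 20.7 and 81.3 in KO 1, 2 and 3, against 34.0, 46.0 and 33.8 in controls 1, 2 and 3. The summed CPM of the 5 pericyte genes (Rgs5, Cspg4, Mcam, Notch3 and Kcnj8), most of it Rgs5, was 149, 100.3 and 173 in KO 1, 2 and 3, against 135, 175 and 166 in controls 1, 2 and 3. The ratio of contractile to pericyte sums was 0.168, 0.206 and 0.470 in KO 1, 2 and 3, against 0.251, 0.263 and 0.203 in controls 1, 2 and 3. KO 3 therefore stood above the 5 other libraries in this ratio, whereas KO 2 lay within the control range and was low in both sums. The order was another one for Acta2 over Notch3, a ratio without Rgs5, in which KO 2 was the highest library. It was 0.648, 1.18 and 1.003 in KO 1, 2 and 3, against 0.976, 0.897 and 0.818 in controls 1, 2 and 3.

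The sum of the 5 pericyte genes was also set against that of 21 endothelial genes. This ratio, most of it Rgs5, was 0.2005, 0.217 and 0.191 in KO 1, 2 and 3, against 0.1999, 0.217 and 0.203 in controls 1, 2 and 3. Without Rgs5 it was 0.0474, 0.0429 and 0.0621 in KO 1, 2 and 3, against 0.0553, 0.0572 and 0.0546 in controls 1, 2 and 3. The sum of 35 further pericyte genes over the endothelial sum varied more, at 0.410, 0.546 and 0.340 in KO 1, 2 and 3, against 0.584, 0.420 and 0.360 in controls 1, 2 and 3, so the narrow range belonged to the sum with Rgs5. The endothelial sum was 742, 462 and 906 CPM in KO 1, 2 and 3, against 677, 808 and 818 CPM in controls 1, 2 and 3. Pecam1, an adhesion molecule of endothelial junctions, had a log2 fold change of -0.12 (standard error 0.23, adjusted p = 0.921 in edgeR) and the endothelial cadherin gene Cdh5 one of -0.16 (standard error 0.21, adjusted p = 0.871). Of the 21 endothelial genes, 6 had positive and 15 negative values, with 0 called, where 52.2% of all tested genes were negative. Eng, Robo4 and Egfl7 had the smallest p in that list, with log2 fold changes of -0.36, -0.31 and -0.19 (adjusted p in edgeR from 0.747 to 0.794).

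**Figure D4:**
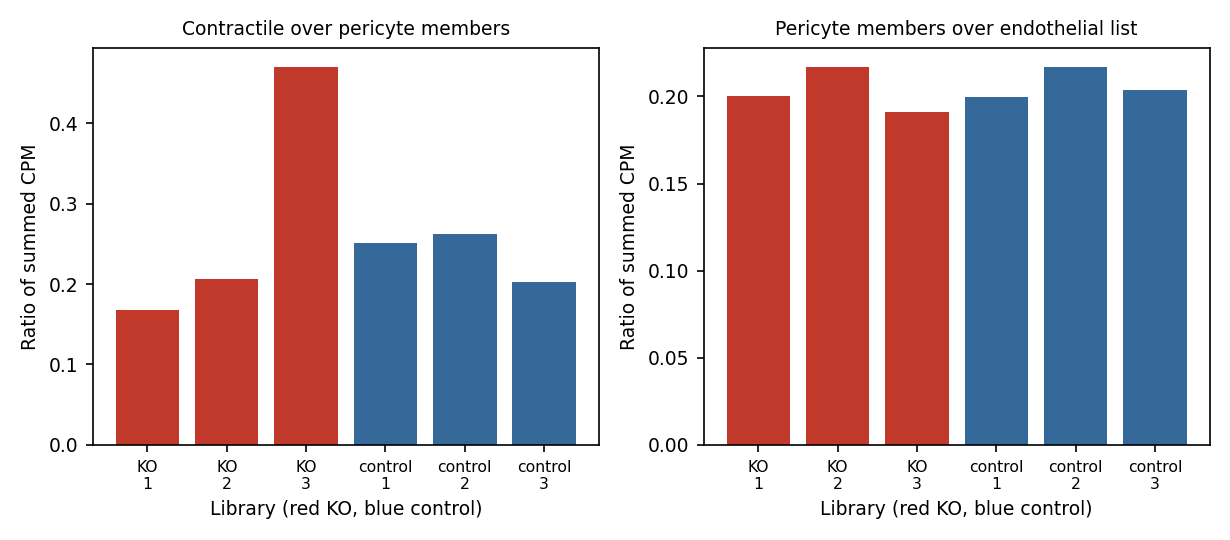
Left, summed CPM of the 4 contractile genes over that of the 5 pericyte genes in each library, and right, summed CPM of the 5 pericyte genes over that of 21 endothelial genes, KO in red and control in blue. KO 3 stands out in the left panel at 0.470, and the right panel runs from 0.191 to 0.217.

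Other genes of the contractile program were also highest, on average, in KO 3, as were the endothelial and Schwann lists. The mean deviation in KO 3 was 0.36 for the endothelial list and 0.45 for the Schwann list. Control 2 was highest for the further pericyte, fibroblast and macrophage lists, at 0.29, 0.66 and 0.30. Of 35 further genes of smooth muscle, 32 were tested, 18 with positive and 14 with negative log2 fold changes, a median of 0.021 and 0 calls. Their mean deviation was -0.14, -0.42 and 0.45 in KO 1, 2 and 3, against -0.030, 0.15 and -0.017 in controls 1, 2 and 3. The smallest p in this list belonged to Tagln2, a transgelin found in many cell types (log2 fold change -0.33, standard error 0.09), to the integrin gene Itga5 (-0.60, standard error 0.18) and to Kcnma1, a calcium-activated potassium channel that islets also express (0.46, standard error 0.16), with adjusted p in edgeR from 0.498 to 0.600. The groups did not overlap in 5 of the 32 genes, where 13.9% of all tested genes did not. Of these, 2 were higher in KO (7.94% of all tested genes) and 3 lower (5.94%). Among the transcription factors that regulate the program, Srf had 13.4, 12.7 and 14.6 CPM in KO 1, 2 and 3, against 15.5, 11.9 and 13.97 CPM in controls 1, 2 and 3. Myocd, the smooth muscle coactivator of Srf, was too low to test, at 0.361, 0.125 and 0.989 CPM in KO 1, 2 and 3, against 0.321, 0.350 and 0.297 CPM in controls 1, 2 and 3. Of 9 tested factors of this group 7 had positive values and 0 were called, where 52.2% of all tested genes were negative. Mrtfb, a related coactivator present in many cell types, had 30.3, 30.9 and 39.3 CPM in KO against 26.2, 24.2 and 24.8 CPM in controls (log2 fold change 0.42, standard error 0.12, adjusted p = 0.515 in edgeR). Tead1 and Mrtfa had log2 fold changes of 0.30 and 0.16.

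Among 35 further pericyte genes, 31 were tested, 8 with positive and 23 with negative values, where 52.2% of all tested genes were negative. The 31 had a median log2 fold change of -0.17 and 0 calls. Their mean deviation was 0.0055, -0.61 and 0.27 in KO 1, 2 and 3, against 0.058, 0.29 and -0.011 in controls 1, 2 and 3. Pdgfrb, the receptor that pericytes need for recruitment, had 11.9, 5.68 and 15.03 CPM in KO 1, 2 and 3, against 11.3, 15.5 and 13.7 CPM in controls 1, 2 and 3 (log2 fold change -0.29, standard error 0.28, adjusted p = 0.830 in edgeR). The ratio of Notch3 to Pdgfrb was 1.18, 1.21 and 1.87 in KO 1, 2 and 3, against 1.18, 1.31 and 1.23 in controls 1, 2 and 3. Vtn, Ednrb and Gucy1b1 had the smallest p in the list, with log2 fold changes of -0.85, -0.52 and -0.40 (adjusted p in edgeR from 0.671 to 0.777). Vtn encodes vitronectin and had 90.6 CPM in control 1, where all 35 further pericyte genes summed to 395 CPM. The ratio of that sum to the endothelial sum in control 1 thus rests partly on Vtn. Control 1 was also the library with the largest acinar share, and a link of Vtn to that share was not tested.

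Signals that recruit or instruct mural cells were not called in either direction. Of 24 tested genes of pericyte recruitment, 8 had positive and 16 negative values, with 0 called, where 52.2% of all tested genes were negative. Pdgfrb is also among the further pericyte genes, and Tek, Tie1 and Eng are also in the endothelial list. The sign counts of these lists therefore share genes. Pdgfb, the endothelial ligand of Pdgfrb, had 6.61, 4.43 and 7.001 CPM in KO 1, 2 and 3, against 8.82, 7.98 and 7.18 CPM in controls 1, 2 and 3, all KO libraries below all controls, as in 5.94% of all tested genes (log2 fold change -0.39, standard error 0.18, adjusted p = 0.706 in edgeR). Angpt1, a ligand that mural cells give to the endothelial receptor Tek, had a log2 fold change of -0.47 (standard error 0.26, adjusted p = 0.741), and N-cadherin, encoded by Cdh2, one of 0.24 (standard error 0.11, adjusted p = 0.683). Of 23 other tested Notch pathway genes, 11 had positive and 12 negative values, with 0 called. The coactivators Maml3 and Maml2 had log2 fold changes of 0.49 (standard error 0.14, adjusted p = 0.515 in edgeR) and 0.50 (standard error 0.19, adjusted p = 0.624), and Hey1, a target of Notch, one of -0.41 (standard error 0.25, adjusted p = 0.745).

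Kcnj8 forms its channel with the sulfonylurea receptor Abcc9, and beta cells use the related pair Kcnj11 and Abcc8. Abcc9 had 6.17, 2.93 and 8.26 CPM in KO 1, 2 and 3, against 4.25, 6.12 and 5.11 CPM in controls 1, 2 and 3 (log2 fold change 0.18, standard error 0.31, adjusted p = 0.906 in edgeR). Abcc9 was lowest in KO 2 and highest in KO 3, whereas Kcnj8 was lowest in KO 2 and highest in control 2. Kcnj11 had 80.8, 88.2 and 84.7 CPM in KO 1, 2 and 3, against 75.7, 79.3 and 94.9 CPM in controls 1, 2 and 3, and Abcc8 had a log2 fold change of -0.00012 (standard error 0.12, adjusted p = 1.00).

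Lists of other stromal and neural cells were also low in KO 2. The mean deviation of 23 fibroblast and stellate genes was 0.17, -1.56 and 0.58 in KO 1, 2 and 3, against 0.19, 0.66 and -0.045 in controls 1, 2 and 3, and their summed level was 347, 122 and 424 CPM in KO against 367, 507 and 298 CPM in controls. Col1a1, the main collagen chain of fibroblasts, had 22.3, 4.49 and 42.9 CPM in KO 1, 2 and 3, against 30.2, 57.5 and 20.7 CPM in controls 1, 2 and 3. The 10 tested Schwann cell genes stood at -0.76 and the 10 tested macrophage genes at -0.52 in KO 2, while 10 beta-cell genes stood at 0.16 there. The acinar list was lowest in KO 3, at -0.71. KO 3 also had the largest share of ribosomal RNA, and the part of these other contents in the mural levels was not tested. With log2 CPM of the ribosomal RNA locus as a covariate, Acta2 had a log2 fold change of -0.91 (standard error 0.67) and Myh11 one of -0.80 (standard error 0.74), both at an edgeR adjusted p of 1.00. The locus took a larger share of counts in each KO library than in each control. Genotype and covariate therefore overlap, and this fit separates them poorly.

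**Figure D5:**
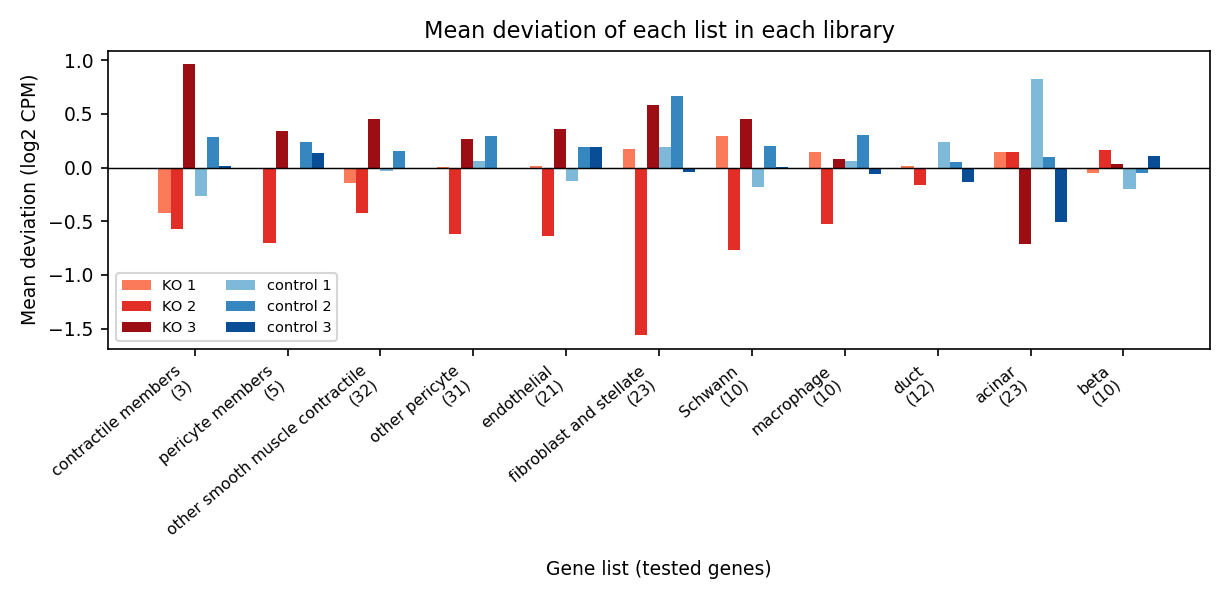
Mean deviation of log2 CPM from the mean of the 6 libraries for the tested genes of each list, KO libraries in reds left of controls in blues, with the number of tested genes in brackets. KO 2 is the lowest bar of the vascular, fibroblast, Schwann and macrophage lists, and KO 3 has its highest bar in the contractile mural genes at 0.96.

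Genes outside the mural list were ranked by how closely they tracked its mean level. Over the 6 libraries, and among the 11662 tested genes whose mean log2 CPM reached 1, the 6 with the highest Pearson r with the mean log2 CPM of the 9 tested mural genes were Igfbp5, Adgra2, Flna, Arhgap31, Fam169a and Tbx2, with r from 0.986 to 0.994. Igfbp5, an insulin-like growth factor binding protein, had 28.2, 15.4 and 54.5 CPM in KO 1, 2 and 3, against 25.6, 40.1 and 34.2 CPM in controls 1, 2 and 3. Flna, which encodes the actin crosslinker filamin A, had 39.0, 27.4 and 80.6 CPM in KO 1, 2 and 3, against 42.8, 57.8 and 46.4 CPM in controls 1, 2 and 3. The size of a change does not enter r, and Fam169a ran only from 12.8 CPM in KO 2 to 15.1 CPM in KO 3. Tbx2 is also in the list of further pericyte genes. The value of r was over 0.9 for 245 of the 11662 genes. This is a description of 6 libraries that share differences in cell content and depth.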

How the data were processed

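RNA of islets was sequenced in 6 libraries, 3 per genotype, and per the labels' protocols an mRNA kit was used. The authors deposited raw read counts per gene. The submitters' processing notes name STAR 2.7.9, featureCounts 2.0.0, GRCm38.p6 and mm10. Which annotation release was used, whether counting used strand and how multiply mapping reads were handled is not given in the sources used here. Exon lengths and coordinates are those of the deposited table. Of 55401 identifiers, 55141 could be paired with a symbol through a table of gene names. A suffix in the column names of the KO libraries is unexplained.

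From the deposited counts, edgeR 4.0.16 (R 4.3.3, glmQLFit and glmQLFTest) was run on all genes with TMM factors and a single term, genotype. The filter was filterByExpr (at least 10 counts, total of at least 15), and p-values were two-sided and adjusted by Benjamini-Hochberg over 14212 genes, with a threshold of 0.05. CPM were scaled by TMM factors, and log2 CPM used a prior count of 2. The script recovered 81.4% of genes simulated with a log2 change of 1 and 97.9% with 2 (193 changed among 14036), with 7.49% of calls false. Recovery was not tested for the mural genes by themselves. The median range of log2 CPM over KO libraries was 1.22 for the tested mural genes, against 0.34 for all tested genes. No pair of libraries was a duplicate (chi-square of at least 14.4 per degree of freedom). The alternatives were RLE normalization, no filter, the replicate number as a block, DESeq2 1.42.0, limma-voom (limma 3.58.1), acinar genes removed, a covariate for a ribosomal RNA locus (its log2 CPM), each library left out. The mural genes and the 15 other lists were chosen with earlier results of these data known. All mural genes are named, with 12 context genes and, of each other list, genes past the threshold or else up to 3 with the smallest p. Those of lists of other cells that no result turns on are not printed. Promoter sequences are from RefSeq (GRCm38.p6). Scripts used Python 3.11.15, pandas 2.3.3, NumPy 2.4.6 and matplotlib 3.10.9.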

Additional observations from a re-analysis of the deposited data

How the results depend on the processing

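No mural gene was called under any of the 13 alternatives run. Their median log2 fold change, -0.024, ran from -0.34 with the ribosomal RNA covariate to -0.0011 without the filter among the alternatives with all libraries, and from -0.68 (without KO 3) to 0.27 (without KO 2) with a library left out. Without KO 3 all 8 tested mural genes were negative and 4 (Acta2, Myh11, Mcam and Notch3) had an unadjusted p under 0.05, against 5.22% of all genes tested there. Such counts were 2 of 10 without the filter (6.96% of all genes), 1 of 9 with the replicate block (9.63%), 1 of 10 without KO 2 (9.32%, Cnn1) and 0 in the other alternatives. Mcam kept its sign throughout, from -0.74 to -0.18, and its smallest adjusted p in edgeR was 0.0668 without the filter, against 0.452 with the replicate block. The signs of the other tested genes, none past the threshold, changed as follows, and the cause was not tested. Acta2 (0.034) became -0.14 with the replicate block, -0.15 with limma-voom, -0.91 with the ribosomal RNA covariate and ranged from -0.79 to 0.32 with a library left out. With that covariate Tagln became -0.24, Myh11 -0.80, Rgs5 0.046, Cspg4 -0.12 and Kcnj8 0.12. The share of this locus was larger in each KO library than in each control, so that fit separates genotype from the covariate poorly. With a library left out Myh11 ranged from -0.70 to 0.59, Cspg4 from -0.21 to 0.24, Des from -0.72 to 0.21 and Notch3 from -0.66 to 0.32.

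Over all genes 10 were called, and 300 without the filter, 36 with the replicate block, 48 with DESeq2, 6 with limma-voom, 0 with the ribosomal RNA covariate (214 at an unadjusted p under 0.05) and 2 to 6 with a library left out, where fewer samples enter. Libraries of the same number had correlations of their deviations of 0.16, -0.16 and 0.14. KO 2 and KO 3 each correlated best with a control of another number, and KO 1 with control 1. The deviations were taken from the mean of each group, which ties these values to each other. They do not settle whether the numbers pair libraries. Depth limits Tagln, Cnn1 and Kcnj8, with at most 27 counts in a library.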
